A study of Mus musculus with 4 samples.

Results

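DNA replication genes encode the proteins that license origins, unwind and copy DNA, supply deoxynucleotides and rebuild chromatin behind the fork. The set described here is a list of 42 such genes. They were listed by name, without a cutoff on measured values, but earlier results of these data were known. All 42 had at least 1 probe on the array, 85 probes in all among the 45281 of the scanner table. After a filter on dim probes, 39 of the 42 genes were tested, among 13906 tested genes. Each of the 39 was detected on all 4 arrays by the probe that represents it. Pola1 and Prim1, which encode the catalytic subunits of DNA polymerase alpha and of primase, and Pole2, a subunit of DNA polymerase epsilon, were not detected on any array and were left out of the test.

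The groups were large tumours (L, 4 to 5 mm in diameter) and small tumours (S, at most 2 mm), both taken from the small intestine of ApcMin/+ mice of the C57BL/6J strain at 30 weeks of age. ApcMin/+ mice carry a truncating mutation in a copy of Apc, a brake on Wnt signalling, and develop many intestinal adenomas. Both sizes carried this allele, and no normal mucosa was analysed here. Each of 2 mice gave a pool of 3 large tumours and a pool of 3 small tumours, 1 Illumina bead array per pool, so a group held 2 arrays and the large and small pools of a mouse share the animal. An exact permutation test of 2 against 2 arrays cannot go below p = 0.333 (two-sided).

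Before a cell divides, the origin recognition complex with Cdc6 and Cdt1 loads the MCM2-7 helicase onto origins. Cdc45, GINS and Mcm10 then activate it, and primase and the polymerases copy the opened strands with the Pcna clamp. In the intestine, dividing cells sit in the crypts, and in adenomas Wnt-driven cells keep dividing. Many genes of this machinery are transcribed at the start of S phase by E2F factors.

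Between 18969 and 19990 probes were detected per array. The small pool of mouse 2 stood apart: across tested genes its Pearson r with the other arrays was 0.94 to 0.952, against 0.963 to 0.978 among the other 3. Among epithelial markers Krt8, an epithelial keratin, had a normalized log2 intensity of 14.25 to 14.61 on all 4 arrays, and Vil1, a protein of the microvilli, 12.09 to 13.16. Epcam, a surface protein of epithelia, was dim (4.53 to 5.27, detected on 2 arrays), and the enterocyte fatty acid binding protein genes Fabp1 and Fabp2 were not detected on any array. Because the pools are whole tumours, fewer cells of a type and less RNA per cell cannot be told apart.

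The DNA replication genes did not differ between large and small tumours in a way shared by both mice. In mouse 1 most were slightly higher in the large tumours, with L above S for 33 of 39 genes and a median log2 difference of 0.19. In mouse 2 most were lower in the large tumours, with L above S for 11 of 39 and a median of -0.21. Over all tested genes these medians were 0.03 and 0.01. L was above S for 84.6% of the replication genes in mouse 1, against 53.3% of all tested genes. In mouse 2 it was above S for 28.2%, against 50.7%. In all, 25 of the 39 genes (64.1%) were higher in L in mouse 1 and lower in L in mouse 2, a pattern that 22.6% of all tested genes showed. Another 8 were higher in L in both mice (20.5%, against a background of 30.7% of tested genes), 3 were lower in both (7.69%, against 26.7%), and 3 were lower in mouse 1 and higher in mouse 2 (7.69%, against 19.9%). These counts are descriptions without a test, and signs were taken with no tolerance: Pold2, counted as lower in both, and Rfc5, counted as higher in mouse 2, stood at -0.0037 and 0.0017 there.

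**Figure D1:**
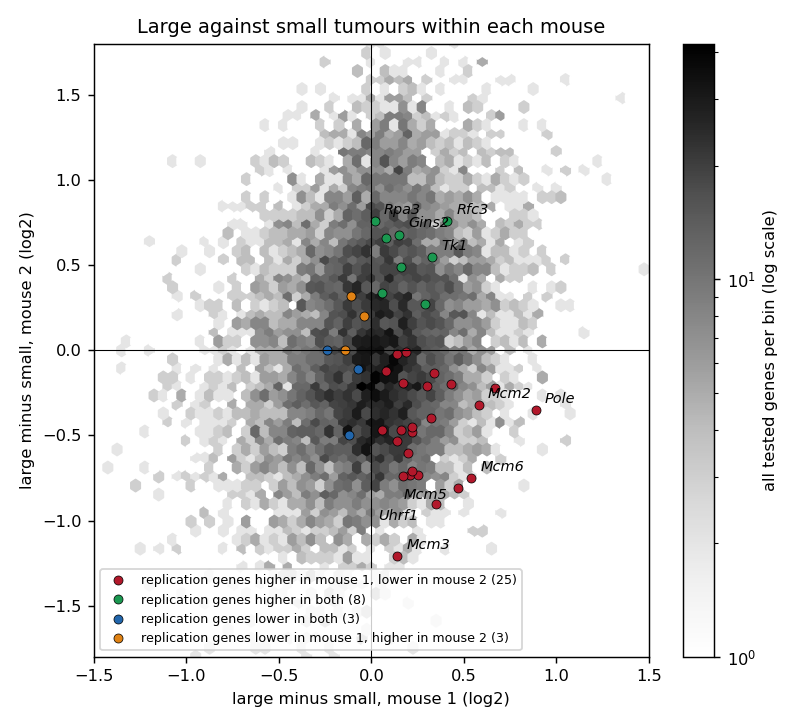
Large minus small log2 difference of each tested DNA replication gene in mouse 1 (x axis) and mouse 2 (y axis), over a grey density of all 13906 tested genes with darker bins holding more genes on a log scale; all genes outside the axes are left out. The 25 genes in the lower right are higher in large tumours of mouse 1 and lower in those of mouse 2, and no replication gene reached a 2-fold difference in both mice.

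No DNA replication gene passed limma's test of L against S with Benjamini-Hochberg adjustment over all 20214 tested probes. The smallest adjusted p was 0.672 without and 0.572 with the mouse as a block, and the standard errors of the log2 differences were 0.28 to 0.43. Over all tested genes 0% passed without the block, and 0.683% passed with it. Counted over probes, 0.594% passed with the block (0.336% higher and 0.257% lower in L), and 0 of the 63 tested probes of replication genes were among them. At an unadjusted limma p under 0.05, 0 of the 39 genes were found without the block, against 7.23% of tested genes, and 0 with it, against 10.6%. At least 2-fold differences of the same sign in both mice were seen in 0 of 39, against 1.74% of tested genes.

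The small pool of mouse 2 held the highest of the 4 values for 23 of the 39 genes (59%), against 33.9% of tested genes, and the lowest for 7 (17.9%), against 34.7%. The small pool of mouse 1 held the lowest value for 22 of them (56.4%), against 22.1%. The median of mouse 2 minus mouse 1 was -0.02 in the large pools, where 19 of 39 genes were above 0 and values ran from -0.90 (Pole) to 0.55 (Gins1). In the small pools the median was 0.47, with 29 of 39 above 0 and a range of -0.83 (Rpa3) to 1.23 (Mcm5). Over all tested genes these medians were 0.02 and 0.00. In the large pools 48.7% of the replication genes were above 0, near the 51.7% of all tested genes. In the small pools 74.4% were, against 50.2%. The gap between the mice was larger in the small than in the large pools for 32 of 39 genes (82.1%), and for 62.8% of all tested genes. Summed over the 39 genes, background-corrected intensity was 24500 and 24000 in the large pools of mouse 1 and mouse 2, against 21000 and 31700 in the small pools.

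**Figure D2:**
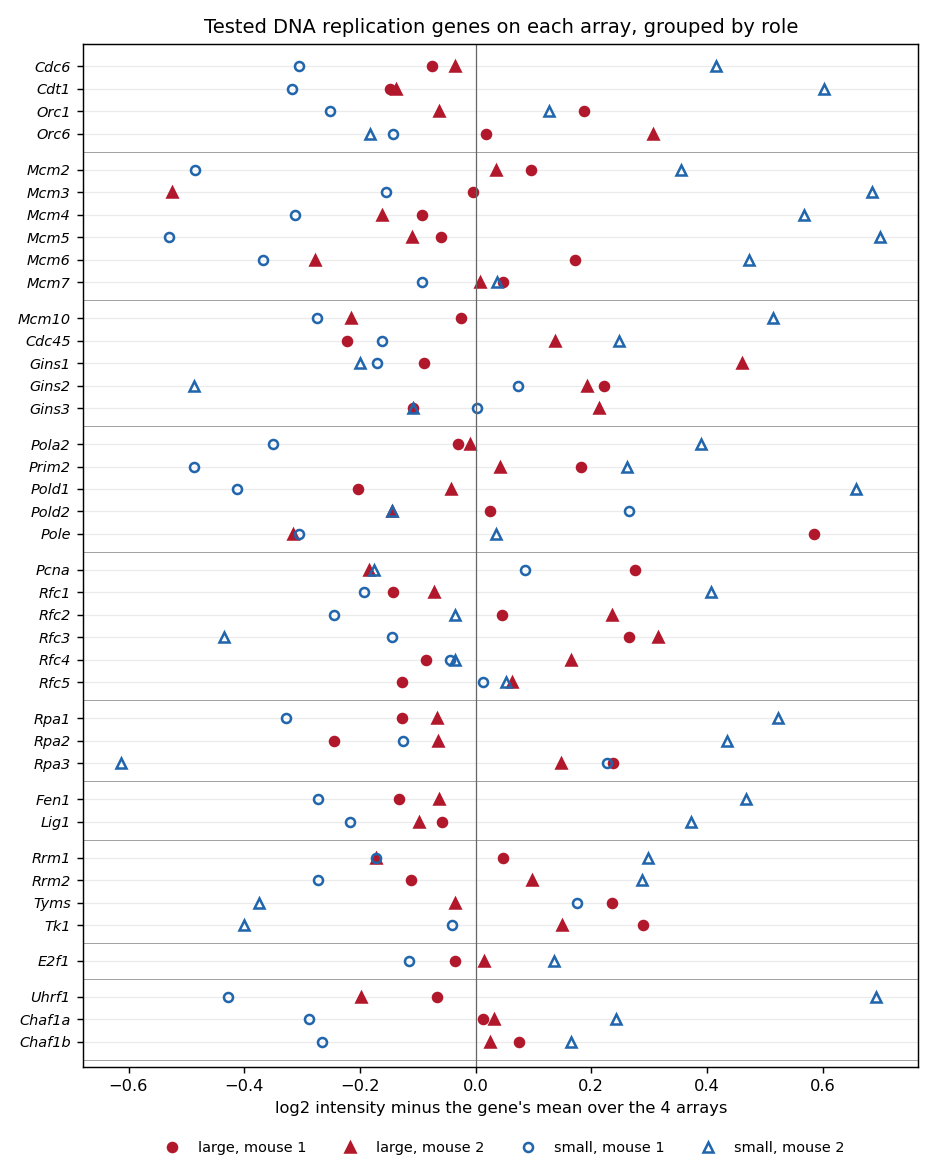
Log2 intensity of each of the 39 tested DNA replication genes on each array, minus the gene's mean over the 4 arrays (x axis); filled red marks are large pools, open blue marks small pools, circles mouse 1 and triangles mouse 2, and horizontal lines part the roles. Open triangles (small, mouse 2) lie farthest right for 23 genes and farthest left for 7.

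In the values below, a pair of values for a size gives mouse 1 before mouse 2, on the normalized log2 intensity scale. Among the origin licensing genes, Orc6, a subunit of the origin recognition complex, had 9.46 and 9.75 in L, against 9.30 and 9.26 in S. Both large pools were above both small ones, by 0.16 in mouse 1 and 0.49 in mouse 2 (limma adjusted p = 0.779, and 0.796 with mouse as a block). Cdt1, which brings the helicase to origins, had 9.81 and 9.82 in L, against 9.64 and 10.56 in S. Its large pools were nearly equal and lay between the small ones. Cdc6, the ATPase that works with it, gave the same picture with 7.77 and 7.81 in L, against 7.54 and 8.26 in S. Orc1, the largest subunit of the recognition complex, had 5.54 and 5.29 in L, against 5.10 and 5.48 in S. Its tested probe was dim, with unnormalized signals of 70.3 to 87.

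The MCM2-7 genes encode the 6 subunits of the replicative helicase, and all 6 were higher in L in mouse 1 and lower in L in mouse 2. Their median difference was 0.34 in mouse 1 and -0.74 in mouse 2. Mcm5 had 10.90 and 10.85 in L (mean 10.87 ± 0.04, SD, n = 2), against 10.43 and 11.66 in S (mean 11.05 ± 0.87, SD, n = 2). The small pools thus lay on either side of the large ones. Its log2 difference over both mice was -0.17 with a standard error of 0.43 (limma adjusted p = 0.926, and 0.917 with mouse as a block). Mcm6 had 10.05 and 9.60 in L, against 9.51 and 10.35 in S, so L minus S was 0.54 in mouse 1 but -0.75 in mouse 2. Mcm2 had 9.02 and 8.96 in L, against 8.44 and 9.28 in S. The groups of both genes overlapped, with the small pool of mouse 2 highest and that of mouse 1 lowest.

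The other helicase genes, given to complete the complex after their values were seen, had the same signs. Mcm4 had 11.27 and 11.20 in L, against 11.05 and 11.93 in S. Mcm3 had 7.79 and 7.27 in L, against 7.64 and 8.48 in S, and its difference of -1.21 in mouse 2 was the most negative of the 39 genes. Mcm7 varied least: its brightest probe had 8.69 and 8.65 in L, against 8.55 and 8.68 in S. A dimmer Mcm7 probe differed by 0.07 in mouse 1 but by -2.23 in mouse 2, so the size of the Mcm7 difference depends on the probe. The 3 tested probes of Mcm6 had the same sign in each mouse. With the mouse 2 small pool left out, the log2 difference of the remaining arrays was 0.44 for Mcm5 and 0.31 for Mcm6, against -0.17 and -0.11 with it. That fit sets both large pools against the small pool of mouse 1 alone, which is assumed to vary like the others.

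**Figure D3:**
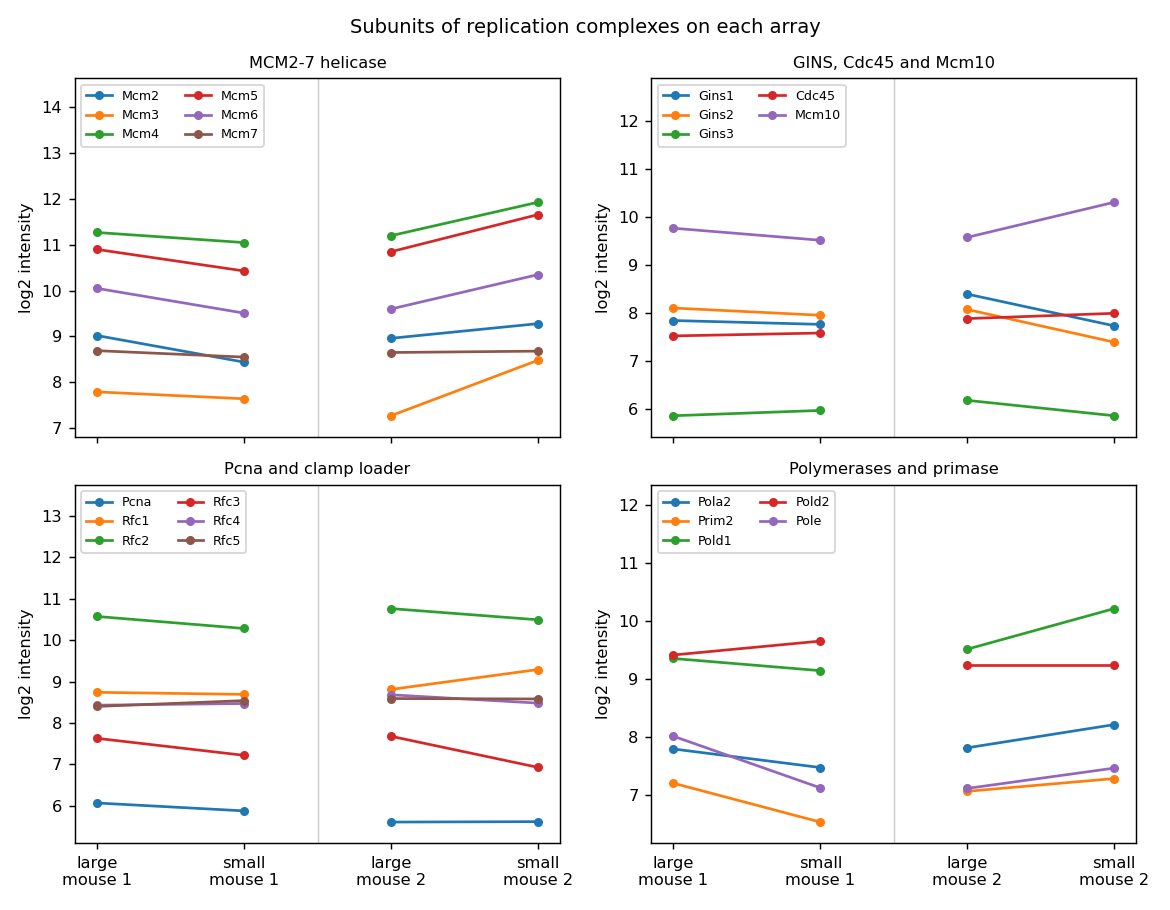
Normalized log2 intensity (y axis) of subunits of 4 replication complexes in the large and small pool of each mouse (x axis); a line joins the pools of a mouse, and levels of different genes are not comparable because each has its own probe. The 6 MCM2-7 lines slope down towards the small pool in mouse 1 and up in mouse 2, while Gins1, Gins2 and Rfc3 slope down in both.

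Sequences of the E2F motif type stand in the start regions of some of these genes. Stretches are shown only for genes that held a motif of the kind searched below. Mcm5 and Mcm6 come from the genes with opposite signs of at least 0.3 log2 in each mouse. Of these genes, Mcm2, Pola2 and Uhrf1 held no motif, and Pole had no listed start region. Rfc3 is shown because its difference over both mice was the largest. RefSeq promoter windows (GRCm38.p6, 250 bases before to 50 after the start) were listed for 36 of the 42 genes. The 8-base motifs TTTCCCGC and TTTGGCGC were searched on both strands, with overlapping matches allowed. Of the 36 genes, 11 held at least 1 motif (30.6%), against 1.8% of all 27025 genes with a window. Counted over windows, 11 of 42 held one (26.2%), against 1.56% of all 32851 windows. Among tested genes with a window, 9 of 33 replication genes did (27.3%), against 294 of 9263 in all (3.17%). Capitals mark the motif or its reverse complement, and each stretch runs 5′ to 3′ on the gene's strand. The Mcm5 stretch is chr8:75109304-75109423 (plus strand), that of Mcm6 chr1:128359721-128359840 (minus strand), and that of Rfc3, a subunit of the clamp loader, chr5:151651201-151651320 (minus strand).
Mcm5: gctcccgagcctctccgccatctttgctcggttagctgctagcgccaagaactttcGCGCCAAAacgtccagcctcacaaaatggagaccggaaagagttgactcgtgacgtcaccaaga
Mcm6: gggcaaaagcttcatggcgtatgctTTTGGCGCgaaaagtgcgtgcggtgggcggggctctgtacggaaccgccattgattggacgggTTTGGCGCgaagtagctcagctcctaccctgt
Rfc3: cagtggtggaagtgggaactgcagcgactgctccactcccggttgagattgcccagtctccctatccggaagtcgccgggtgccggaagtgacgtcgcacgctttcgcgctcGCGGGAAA
The Mcm5 match begins 149 bases before the start, and the Mcm6 matches begin 110 and 47 bases before it. A match is a description of these letters and shows no binding. Of the genes highest in the small pool of mouse 2, 6 of 21 with a window held a motif (28.6%), and of the others 3 of 12 (25%).

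The genes that activate the helicase had mixed signs. The GINS complex joins Cdc45 and MCM2-7 to form the active helicase. Gins2 had 8.11 and 8.08 in L (mean 8.09 ± 0.02, SD, n = 2), against 7.96 and 7.40 in S (mean 7.68 ± 0.40, SD, n = 2). Both large pools were above both small ones, by 0.15 in mouse 1 and 0.68 in mouse 2 (limma adjusted p = 0.745, and 0.722 with mouse as a block). All 3 tested Gins2 probes were higher in L in both mice. Gins1 had 7.85 and 8.40 in L, against 7.77 and 7.74 in S, again without overlap. Gins3 had 5.87 and 6.19 in L, against 5.98 and 5.87 in S, and Cdc45 had 7.53 and 7.89 in L, against 7.59 and 8.0 in S. Both of these overlapped between sizes. Mcm10, which bridges the helicase and polymerase alpha, had the signs of the helicase genes on its brightest probe. That probe had 9.77 and 9.58 in L, against 9.52 and 10.31 in S. A second Mcm10 probe, detected on all 4 arrays, was lower in L in both mice, by -0.11 and -0.55.

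Of the polymerase and primase genes, 5 of 8 were tested, and 4 of the 5 were higher in L in mouse 1 and lower in mouse 2. Pole, the catalytic subunit of the leading strand polymerase epsilon, had 8.02 and 7.12 in L, against 7.13 and 7.47 in S. Its large pool of mouse 1 was the highest of the 4 arrays, and the difference was 0.89 in mouse 1 and -0.35 in mouse 2 (limma adjusted p = 0.864, and 0.859 with mouse as a block). Pola2, the accessory subunit of polymerase alpha, had 7.80 and 7.82 in L, against 7.48 and 8.22 in S. Pold1, the catalytic subunit of polymerase delta, had 9.36 and 9.52 in L, against 9.15 and 10.22 in S, so the small pool of mouse 2 was highest. Prim2, the large primase subunit, was 0.67 higher in L in mouse 1, with -0.22 in mouse 2, on its brightest probe. A second Prim2 probe, detected on all 4 arrays, differed by 0.1 and 0.02, so its sign in mouse 2 depends on the probe. Pold2, a small subunit of polymerase delta, had 9.42 and 9.25 in L, against 9.66 and 9.25 in S, with the pools of mouse 2 level.

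Pcna, the sliding clamp, had 6.07 and 5.61 in L, against 5.88 and 5.62 in S. Its only probe was dim, with unnormalized signals of 82.9 to 106 against array medians of 59.1 to 63. The small difference on it therefore cannot show that Pcna was level. The Rfc genes encode the clamp loader, and 2 of its 5 subunits had large pools above both small pools. Rfc3 had 7.63 and 7.68 in L (mean 7.66 ± 0.04, SD, n = 2), against 7.22 and 6.93 in S (mean 7.07 ± 0.21, SD, n = 2). Its log2 difference of 0.58 with a standard error of 0.29 was the largest over both mice among the 39 genes, and both its tested probes had the same sign in each mouse (limma adjusted p = 0.672, and 0.572 with mouse as a block). Rfc2 had 10.57 and 10.76 in L, against 10.28 and 10.49 in S, but of its 4 tested probes a dimmer one differed by -0.03 and -0.53. Rfc1, the largest subunit, had 8.74 and 8.81 in L, against 8.69 and 9.29 in S. The other loader genes were close to level: Rfc4 differed by -0.04 and 0.20, and Rfc5 by -0.14 and 0.00.

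Replication protein A coats the exposed single strands, and its 3 subunit genes did not move together. Rpa1, the large DNA-binding subunit, had 11.02 and 11.08 in L, against 10.82 and 11.67 in S. Rpa2, the middle subunit, had 7.43 and 7.61 in L, against 7.55 and 8.11 in S, lower in L in both mice. Rpa3, the small subunit, had 9.87 and 9.78 in L, against 9.86 and 9.02 in S. The small pool of mouse 2 was thus the highest array for Rpa1 and Rpa2 and the lowest for Rpa3. The Rpa3 difference was 0.02 in mouse 1 and 0.76 in mouse 2. With the mouse 2 small pool left out, the fitted difference was -0.03. Fen1, the nuclease that trims Okazaki fragments, had 9.85 and 9.92 in L, against 9.71 and 10.45 in S. Lig1, the ligase that joins them, differed by 0.16 and -0.47 on its brightest probe. A dim Lig1 probe was higher in L by 0.95 in mouse 1 and by 1.13 in mouse 2 (limma adjusted p = 0.589, and 0.229 with mouse as a block). Of the 63 tested probes of replication genes it alone had an unadjusted limma p under 0.05 without the block, while 7.73% of all tested probes did. With the block 2 of the 63 did, against 11% of all tested probes.

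Among the genes of nucleotide supply, Tk1 and Tyms were higher in L in both mice. Tk1, the thymidine salvage kinase, had 9.59 and 9.45 in L (mean 9.52 ± 0.10, SD, n = 2), against 9.26 and 8.90 in S (mean 9.08 ± 0.25, SD, n = 2). Its large pools were above both small pools, by 0.33 in mouse 1 and 0.55 in mouse 2, and its 2 tested probes had the same signs (limma adjusted p = 0.721, and 0.696 with mouse as a block). Tyms, thymidylate synthase, had 10.02 and 9.75 in L, against 9.96 and 9.41 in S, with overlap. Averaged over its 4 tested probes the Tyms difference was -0.12, against 0.20 on the brightest. Ribonucleotide reductase makes deoxynucleotides from ribonucleotides, and its subunit genes had opposite signs in the mice: Rrm1 differed by 0.22 and -0.48, and Rrm2 by 0.17 and -0.19. Not all of their probes agreed: a second Rrm2 probe, detected on all 4 arrays, differed by -0.29 and 0.16. For Rrm1, another probe detected on all 4 arrays kept the signs, at 0.43 and -0.48, while a dim probe differed by -0.41 and -0.33. Of the 14 replication genes with several tested probes, the probes had the same sign in both mice for 5 (Gins2, Mcm6, Mcm7, Rfc3 and Tk1). Over all replication genes, both large pools lay above both small pools in 6 of 39 (15.4%, against 22.2% of tested genes): Tk1, Gins1, Gins2, Rfc2, Rfc3 and Orc6. Both lay below both small pools in 0 of 39, against 17.6%.

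E2f1, an activating E2F factor, differed little, with 8.14 and 8.19 in L, against 8.06 and 8.31 in S (limma adjusted p = 0.989, and 0.990 with mouse as a block). Uhrf1, which guides DNA methylation onto newly copied strands, had 10.78 and 10.65 in L (mean 10.71 ± 0.09, SD, n = 2), against 10.42 and 11.54 in S (mean 10.98 ± 0.79, SD, n = 2). It showed the helicase pattern, with L minus S at 0.35 in mouse 1 but -0.90 in mouse 2. The chromatin assembly factor subunits Chaf1a and Chaf1b, which place histones behind the fork, differed by 0.30 and -0.21, and by 0.34 and -0.13. All 3 chromatin genes were highest in the small pool of mouse 2.

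Other genes of the pathway, from a list of 51 of which 40 were tested, had mixed signs. Of the 40, 13 were higher and 9 lower in L in both mice, and 12 were higher in mouse 1 and lower in mouse 2. Over all tested genes these patterns held for 30.7%, 26.7% and 22.6%, in that order. Of the 40 genes 0 passed limma without or with the mouse block (smallest adjusted p = 0.654 and 0.407). Their medians were 0.15 in mouse 1 and -0.01 in mouse 2. Genes of the fork itself leaned the other way in mouse 2, with a median of 0.35 over 14 genes. The RNase H2 genes, whose product removes RNA from DNA, were higher in L in both mice: Rnaseh2c by 0.19 and 1.59, and, chosen after their values were seen, Rnaseh2a by 0.28 and 0.96 and Rnaseh2b by 0.12 and 0.82. Wdhd1, a scaffold at the fork, differed by -0.02 and -1.40, and Top1, a topoisomerase, by -0.01 and -1.62. The kinase gene Cdc7, which fires licensed origins, differed by -0.30 and -1.12. Of 11 tested E2F and Rb family genes, 3 were lower in L in each mouse, against 26.7% of all tested genes. Only 1 was higher in each, against 30.7%, and 0 of the 11 passed. E2f2, an activating E2F, had 8.98 and 8.75 in L, against 9.71 and 10.13 in S, with both large pools below both small ones (limma adjusted p = 0.588, and 0.239 with mouse as a block).

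Mitosis genes also mostly had opposite signs in the mice. Of 18 tested, 13 were higher in L in mouse 1 and lower in mouse 2, 4 were higher in both and 1 was lower in both. Over all tested genes these patterns held for 22.6%, 30.7% and 26.7%, in that order. The mitosis genes had medians of 0.25 and -0.38, and 0 passed. Top2a, which untangles chromosomes, differed by 0.17 and -1.18, and Mki67, a protein of dividing cells, by 0.28 and -0.88. Birc5 and Cenpa, which act at the centromere, differed by 0.30 and 0.49, and by 0.27 and 0.45. The 8 tested genes of G1 cyclins and their kinases had medians of -0.01 and 0.06, without a shared direction. Among them Ccne2, a cyclin that starts S phase, had 5.85 and 5.93 in L, against 6.01 and 7.83 in S, so the small pool of mouse 2 was again the highest.

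**Figure D4:**
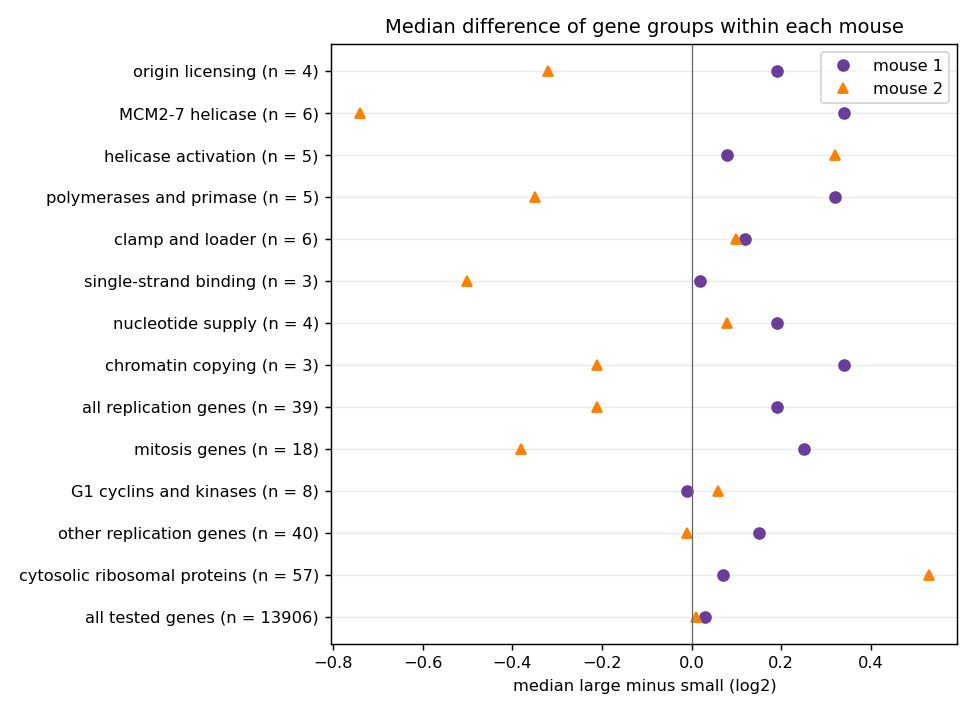
Median large minus small log2 difference (x axis) of groups of tested genes within mouse 1 (circles) and mouse 2 (triangles); n is the number of tested genes, and role groups with under 3 are not drawn. MCM2-7 genes and mitosis genes have medians above 0 in mouse 1 and below 0 in mouse 2, helicase activation genes lie above 0 in both, and ribosomal protein genes stand at 0.53 in mouse 2.

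Other measures moved with the small pool of mouse 2. Of 57 cytosolic ribosomal protein genes, a group added after the data were seen, 51 had their lowest value there, against 34.7% of tested genes. The median difference of the 57 was 0.07 in mouse 1 and 0.53 in mouse 2. Genes with a longer genomic span tended to be higher in that pool: across 11653 tested genes with a span, Spearman rho between span and L minus S was 0.00804 in mouse 1 and -0.303 in mouse 2, and across the 39 replication genes it was 0.382 and -0.329. These are descriptions across genes, which share the arrays and are not independent replicates, and a span is not a transcript length. The part of these measures in the replication gene values was not tested. Sums of intensity over marker lists weigh the brightest genes most. As a background to their sign counts, 30.7% of all tested genes were higher and 26.7% lower in L in both mice. Another 22.6% were higher in mouse 1 and lower in mouse 2, and 19.9% the reverse. The small pool of mouse 2 held the highest value for 33.9%. Summed intensity of 8 of 8 epithelial markers was 45000 and 48000 in L, against 51200 and 60500 in S. Of these 8, 5 were lower and 2 (Krt18 and Epcam) higher in L in both mice. That of 8 of 8 stem cell and Wnt target markers was 3760 and 2920 in L, against 2020 and 2100 in S. Of these 8, 5 were higher and 1 (Rnf43) lower in L in both mice, while Axin2 and Myc were higher in mouse 1 and lower in mouse 2. Markers of absorptive enterocytes (5 of 8, Fabp1 and Fabp2 not detected) summed to 16300 and 39100 in L, against 26900 and 55700 in S, with medians of -1.34 in mouse 1 and -1.31 in mouse 2, and 4 of the 5 were highest in the small pool of mouse 2. Endothelial markers (4 of 5) summed to 1030 and 1080 in L, against 699 and 694 in S, and smooth muscle markers (4 of 5) to 10300 and 5310 in L, against 9140 and 3590 in S. In each list 2 genes were higher in L in both mice, and 2 were higher in mouse 1 and lower in mouse 2. Macrophage markers (5 of 6) summed to 2140 and 1150 in L, against 2960 and 1010 in S, with 2 lower in L in both mice and 3 lower in mouse 1 and higher in mouse 2. Fibroblast markers (8 of 8) summed to 10500 and 5210 in L, against 7060 and 3120 in S, and neutrophil markers (4 of 7) to 3150 and 3980 in L, against 954 and 395 in S. Of the fibroblast genes 6, and of the neutrophil genes all 4, were higher in L in both mice. T cell markers (6 of 8, Cd4 and Cd8a not detected) summed to 647 and 411 in L, against 890 and 382 in S. Of these 6, 3 were lower and 1 (Thy1) higher in L in both mice. Of 7 B cell markers only Cd79b was tested. The part of these cell types in the replication gene values was not tested.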

How the data were processed

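Biotin-labelled cRNA from total RNA of 4 tumour pools was read on Illumina bead arrays, 1 per pool. The scanner table, exported by the authors with gene expression module 3.2.6 per the file headers (BeadStudio in the submitters' processing notes), holds linear bead intensity with no normalization or background subtraction, and a deposited detection p-value against each array's negative controls. The number of beads per probe is deposited as another column, and the signal's bead standard error was 3.88% to 5.02% of the signal at the median over replication gene probes. The authors' normalized intensity matrix (15274 probes, method not given in the sources used here) was an alternative. No column of a sample was left unmapped.

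Signals were background-corrected from the detection p-values, given an offset of 16, quantile-normalized and log2-transformed with neqc of limma 3.58.1 (R 4.3.3). Probes with a detection p-value under 0.05 on at least 2 arrays were tested, and the brightest tested probe represents a gene. Symbols were updated through RefSeq gene names (GRCm38.p6): current symbols stood on 27760 probes, older symbols were replaced on 7994, and 9527 kept the name in the file. L was compared with S with lmFit and eBayes of limma without the mouse as a block (2 residual degrees of freedom), adjusted over all tested probes at a threshold of 0.05. The mouse block (1 residual degree of freedom) and the other settings of the closing section are alternatives. The pairing of pools by animal comes from the labels, and the difference between the mice in large pools correlated with that in small pools across genes (Pearson r = 0.25). With 1 pool per size and mouse, p-values rest on 2 animals and a spread pooled over probes.

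Values of all 4 arrays are given for the 10 genes with the largest difference of one sign in both mice, for those with opposite signs of at least 0.3 log2 in each, and for a gene of every role; others named were chosen after their values were seen. From other lists, genes were named by the size of a shared difference, and Top2a, Mki67, Ccne2, Wdhd1, Rnaseh2a and Rnaseh2b after their values were seen. The gene set and the lists were chosen with earlier results of these data known. The fit was tested on simulated data, but the setting and outcome of that test are not reported here and no result above rests on them.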

Additional observations from a re-analysis of the deposited data

Results flagged for a closer look

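For 6 replication genes the large tumours were higher than the small ones in mouse 1 and lower in mouse 2, by at least 0.3 log2 each way. The share of all tested genes past this cutoff was not counted, so the count of 6 has no background to be read against. The gap between the L minus S differences of the mice (mouse 1 minus mouse 2) was 1.29 for Mcm6, 1.28 for Mcm5, 1.25 for Uhrf1, 1.24 for Pole, 0.9 for Mcm2 and 0.72 for Pola2. Each mouse gave 1 pair of pools, so the difference between the mice was not tested. Except for Pole, the small pool of mouse 2 was the highest of the 4 arrays for these genes.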

How the results depend on the processing

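The 8 settings (the reported one, no background correction, an offset of 50, median scaling, the authors' values, no filter, a strict filter and the mean of a gene's probes) tested 38 to 42 of the genes. They gave 24 or 25 genes higher in L in mouse 1 and lower in mouse 2, 7 to 10 higher in both, and medians of 0.16 to 0.19 in mouse 1 and -0.37 to -0.16 in mouse 2. The settings with no filter and a strict filter use the reported normalized values, so the log2 differences of the genes tested as reported could not change there. With the mean of a gene's probes, 5 genes were lower in both in place of 3, and the difference of Tyms was -0.12, also with the replicate block. Median scaling moved the median of all genes to -0.10 in mouse 2 and to 0.12 between the small pools, and the replication genes there to 0.68. Under all of these, with or without the replicate block, 0 replication genes passed.

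Over all probes 0 passed as reported and 120 with the mouse as the replicate block. Averaging a gene's probes does not enter the fit over probes, so the count of 120 under that setting is the same fit. Median scaling gave 2 without and 457 with the block, the authors' values with the block 36, and the strict filter with the block 322, and the remaining settings with the block 0. Leaving out 1 pool gave 0 to 70 probes, 70 without the large pool of mouse 1 and 19 without that of mouse 2, and the median difference of the replication genes ran from -0.22 to 0.18 (-0.02 with all 4). Over the 4 fits that leave out 1 pool, 31 of the 39 genes took both signs. The other 8, with 1 sign throughout, were Mcm3, Tk1, Gins1, Gins2, Rfc2, Rfc3, Rpa2 and Orc6. The share of all tested genes with 1 sign throughout was not counted, so neither count sets the replication genes apart. Among genes given under the naming rule the ranges were -0.08 to 0.47 for Tyms, -0.03 to 0.81 for Rpa3, -0.33 to 0.08 for Pold2, -0.29 to 0.55 for Mcm2, -0.79 to 0.44 for Mcm5, -0.53 to 0.31 for Mcm6, -0.41 to 0.33 for Pola2, -0.18 to 0.72 for Pole, -0.83 to 0.29 for Uhrf1, -0.56 to 0.18 for Fen1 and -0.15 to 0.10 for E2f1. The causes were not tested. Differences within a mouse need both of its pools, so they have no value without 1 of them, and the headers name no chip, so a chip block was not run. Pola1, Prim1 and Pole2 did not rise above background, and the setting with no filter counts their background-level values.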
